A study of Mus with 3 samples.

Results

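Regulatory T cells (Tregs) are CD4 T cells that hold other immune cells in check. Their program is set by the transcription factor Foxp3, and in tumors they restrain the T cells that would otherwise attack the cancer. They do so with inhibitory receptors such as Ctla4, with the high-affinity IL-2 receptor chain Il2ra, with TGF-beta released by Lrrc32 and integrin β8, and with cytokines such as IL-10. Klrg1, an inhibitory lectin-like receptor, marks terminally differentiated Tregs, and Tregs without it are usually taken as the less differentiated pool.

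Klrg1-negative tumor Tregs were taken here as T cells with a sequenced T cell receptor (TCR) and at least 500 unique molecular identifiers (UMIs, each standing for 1 captured RNA molecule), with 1 or more UMIs of Foxp3 and with none of Cd8a, Cd8b1 or Klrg1. The rule found 226 cells among 3702 TCR-bearing cells and 5600 barcodes with 500 or more UMIs. Of 712 TCR-bearing cells with Foxp3 UMIs, 83 also had Cd8 UMIs and were left out, and 403 had Klrg1 UMIs and form the nearest neighbouring population, the Klrg1-positive Tregs. The reference population was 392 Foxp3-negative CD4 T cells, which had Cd4 UMIs and no Foxp3 UMI. Foxp3 RNA can go unread, as 85 of the 226 Klrg1-negative Tregs had only 1 Foxp3 UMI. The reference may therefore hold some Tregs, and their share was not tested. All 3 populations were chosen by the measured UMIs of Foxp3, Cd4, Cd8a, Cd8b1 and Klrg1, whose values are therefore only a description and were not tested.

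The cells came from MC38 colon carcinoma tumors grown under the skin of mice with different T cell levels of the retinoic acid receptor RARα and collected on day 16. WT stands for the control strains of the study, C57BL/6 and dLck-Cre, and which of these gave the tumor was not stated. RARα-KO mice carry dLck-Cre, a Cre driven in T cells by the distal Lck promoter, with floxed Rara alleles (Rara L/L). RARα-TG mice carry CD2-Rara, a Rara transgene driven by CD2 elements and so active in T cells at large. The tumor suspension of each genotype was stained with 1 of 3 hashtag antibodies, 30000 CD45.2+ CD3+ T cells were sorted from it and 10000 cells of the same suspension were added without selection, and all were pooled into 1 single-cell 5′ library. The number of mice per tumor pool was not stated and each genotype is 1 sample, so differences between genotypes have no replicate and are given without a test. The deposited tissue and cell type labels name spleen and naive CD8 T cells, while the sorting protocol, the study and the Foxp3-positive cells themselves are those of tumor T cells.

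A genotype could be assigned to 215 of the 226 cells, 77 from WT, 50 from RARα-KO and 88 from RARα-TG. The median cell of WT, RARα-KO and RARα-TG had 3494, 3748 and 3225 UMIs, with cells ranging from 878 to 34415 UMIs. Summed over cells the depth was 315561, 261552 and 327529 UMIs, which stand behind every genotype value below. The median mitochondrial share was low, at 0.75%, 0.59% and 0.67%. Foxp3 itself gave 1 UMI in 85 cells, 2 in 49 and 3 or more in 92, with 12 at most, and Cd4 UMIs were seen in 117 of the 226 cells. 1 WT cell held 6611 hemoglobin UMIs and 1 RARα-KO cell was the only member above 20000 UMIs. Counts that lead a comparison are therefore also given without such cells.

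The TCR chains of the cells are shown for the largest clonotype of each genotype, since they carry the result on how far the Klrg1-negative Tregs had expanded. A clonotype is a set of cells with the same TCR chains, and the hypervariable CDR3 carries most of the contact with antigen. Nucleotides are given 5′ to 3′, and capitals mark what lies between the first 4 and the last 4 codons of the CDR3, the stretch around the V to J junction.
WT alpha (TRAV7D-2, TRAJ31): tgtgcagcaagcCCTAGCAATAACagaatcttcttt
WT beta (TRBV10, TRBJ2-7): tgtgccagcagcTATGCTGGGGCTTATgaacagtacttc
RARα-KO alpha (TRAV4-4-DV10, TRAJ42): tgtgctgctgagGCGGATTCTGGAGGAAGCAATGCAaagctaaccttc
RARα-KO beta (TRBV1, TRBJ2-4): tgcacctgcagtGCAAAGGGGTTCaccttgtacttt
RARα-TG alpha (TRAV6N-7, TRAJ34): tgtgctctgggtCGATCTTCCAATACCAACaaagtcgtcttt
RARα-TG beta (TRBV20, TRBJ2-4): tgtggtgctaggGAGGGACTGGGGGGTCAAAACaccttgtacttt
RARα-TG beta, a further pair of cells (TRBV19, TRBJ2-4): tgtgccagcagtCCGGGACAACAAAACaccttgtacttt
RARα-TG beta, a further pair of cells (TRBV5, TRBJ2-1): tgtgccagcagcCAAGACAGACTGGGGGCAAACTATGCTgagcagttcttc
The WT clonotype held 4 Klrg1-negative Tregs and 4 Klrg1-positive Tregs among its 10 cells. The RARα-KO clonotype held 4 Klrg1-negative and 2 Klrg1-positive Tregs among 8 cells. In RARα-TG no clonotype had more than 2 Klrg1-negative Tregs, and 3 clonotypes reached that number. The first of these was one of the larger Treg clonotypes of the tumor, with 13 Klrg1-positive Tregs and 3 Foxp3-negative CD4 T cells among 19 cells, while the other two held no further cell.

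The targeted gene was examined first. Rara, the RARα gene (chromosome 11, 98927800 to 98974942, GRCm38), gave 37 UMIs in 29 of 77 WT cells, 29 UMIs in 23 of 50 RARα-KO cells and 86 UMIs in 51 of 88 RARα-TG cells. As CPM, counts per 1e+06 gene UMIs of the same cells, these are 117, 111 and 263. The RARα-TG level was above WT by 1.16 on the log2 scale, with a 95% interval of 0.59 to 1.76. The RARα-KO level did not stand apart from WT, with a log2 ratio of -0.08 and an interval of -0.83 to 0.66. The count is per gene and an allele that lacks an exon can still be transcribed, so the RARα-KO value does not check the deletion. These intervals, like all intervals and floors below, cover counting error only.

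The Treg identity of the cells was checked with 5 markers other than Foxp3. Ikzf2, which encodes the Treg factor Helios, was seen in 84.7% of Klrg1-negative Tregs, in 85.9% of Klrg1-positive Tregs and in 24.1% of Foxp3-negative CD4 T cells. Il2ra was seen in 86.0%, 90.5% and 38.9%, and Izumo1r, the folate receptor 4 of Tregs, in 57.7%, 53.1% and 20.1%. Tnfrsf4, the costimulatory receptor OX40, was seen in 95.8%, 97.9% and 83.6%. Ebi3, a subunit of IL-35 and IL-27, did not set the Klrg1-negative Tregs apart from the Foxp3-negative CD4 T cells, at 27.4% (21.6% to 33.9%) and 25.7% (21.4% to 30.5%), while Klrg1-positive Tregs were at 36.9% (32.0% to 42.0%). As a background, Cd8a-positive T cells without Foxp3 gave 24.0% for Ikzf2, 39.6% for Il2ra, 3.79% for Izumo1r, 31.4% for Tnfrsf4 and 1.45% for Ebi3, at a median of 5549 UMIs against 3225 to 3748 in the Klrg1-negative Tregs. With every cell thinned to 1000 UMIs the rule was applied again, and cells that lost their Klrg1 or Foxp3 UMIs changed population. RARα-TG then had 92 Klrg1-negative Tregs in place of 88, and Klrg1-positive Tregs fell from 377 to 129. In these newly gated populations, with 203 Klrg1-negative Tregs, Ikzf2 was seen in 45.3%, 47.3% and 23.1% in the same order. Izumo1r was seen in 28.6%, 20.2% and 12.4%. These shares are therefore no depth-matched check of the same cells. Markers of other cells were sparse: myeloid markers summed to 22.2 to 38.2 CPM with 4 to 6 of 10 genes at 0, and all 4 neutrophil markers were at 0 in every genotype. Dendritic cell, B cell, NK cell and MC38 or stromal markers each summed to at most 51.9 CPM.

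**Figure D1:**
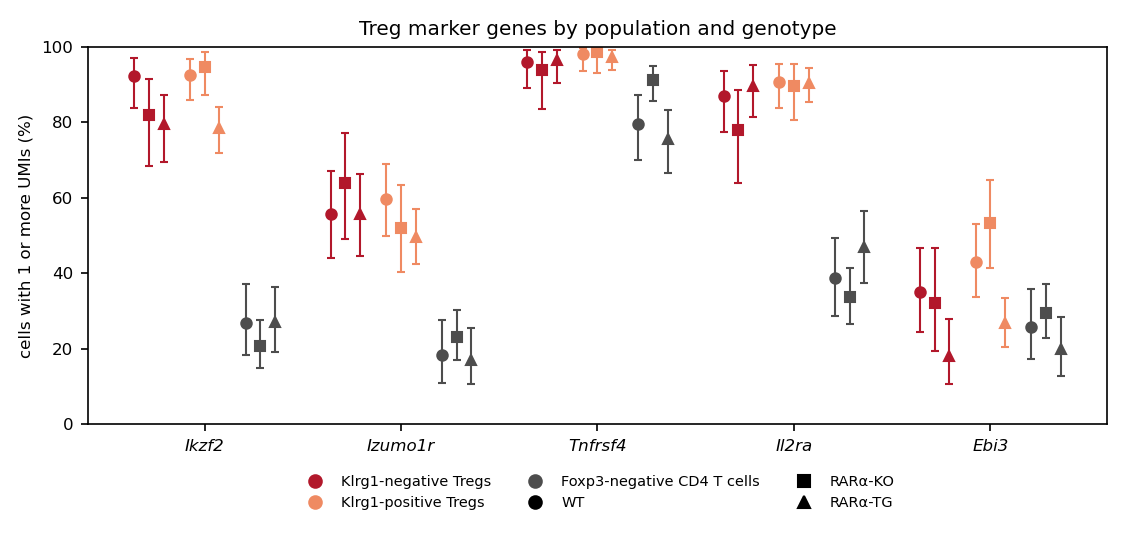
Share of cells with 1 or more UMIs of each marker (vertical axis, %) for Klrg1-negative Tregs, Klrg1-positive Tregs and Foxp3-negative CD4 T cells, with 1 symbol per genotype and exact 95% binomial intervals. Ikzf2 was seen in 92.2%, 82.0% and 79.5% of the Klrg1-negative Tregs of WT, RARα-KO and RARα-TG and in 20.7% to 27.0% of the Foxp3-negative CD4 T cells, while the Ebi3 intervals of Klrg1-negative Tregs and Foxp3-negative CD4 T cells overlap in every genotype.

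Cells just inside the gate held Ikzf2 and Ccr7 near the level of the rest of it, but less Il2ra. The 82 assigned members with a single Foxp3 UMI held Ikzf2 at 826 CPM, and the 133 with 2 or more held it at 761 CPM. Il2ra was at 892 CPM (784 to 1012) and 1170 CPM (1087 to 1258) in the same cells, and these intervals do not overlap. Klrg1-positive Tregs with a single Klrg1 UMI (83 cells) held Ikzf2 at 792 CPM and Il2ra at 1218 CPM. Foxp3-negative CD4 T cells held Ikzf2 at 123 CPM and Il2ra at 233 CPM. On the side of Klrg1, the level of Ccr7, the lymph node homing receptor, was 389 CPM and 399 CPM in these groups of members, 223 CPM in Tregs with 1 Klrg1 UMI and 170 CPM in Tregs with 2 or more. A Klrg1 count of 0 depends on how deeply a cell was read, so some Klrg1-negative cells will have carried unread Klrg1 RNA.

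The main comparison asked how Klrg1-negative Tregs differ from the other CD4 T cells of the same tumors. The Treg genes Ikzf2, Il2ra, Izumo1r, Lrrc32, Itgb8 and Ctla4 were higher in all 3 genotypes, as were Il10, Gzmb and the interferon-response gene Isg15. Csf2, Ifng, Tnfsf8 and Cd40lg, the cytokines and ligands of helper T cells, were lower in all 3, as were Bcl2 and the chemokine receptor Cxcr6. UMIs were summed per genotype and population, and the sums were tested with edgeR's quasi-likelihood test with the genotype as a block. Of 5213 genes tested, 289 were higher (5.54%) and 230 lower (4.41%) at an adjusted p under 0.05, and without the cells of doubtful depth or hemoglobin content 355 were higher and 273 lower. The counts were smaller with DESeq2 (123 higher and 92 lower), without the genotype block (182 and 146) and without WT (178 and 135), while the calls of the 22 markers and largest-difference genes examined under the alternatives stayed on their side of the threshold wherever they could be tested. The test has 3 pairs, each from a tumor of another genotype, so it speaks for the difference they share.

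Among 14 Treg identity genes, 12 were tested, 10 were higher and 1 was lower, with a median log2 difference of 1.88 beside -0.02 over all genes. Ikzf2 (chromosome 1, 69531207 to 69687351) stood at 922, 658 and 742 CPM in WT, RARα-KO and RARα-TG Klrg1-negative Tregs against 147, 100 and 143 CPM in Foxp3-negative CD4 T cells. The groups did not overlap, and the log2 difference was 2.54 with a standard error (SE) of 0.15 and an adjusted p of 2.70e-06. Il2ra (chromosome 2, 11642792 to 11693194) stood at 1109, 960 and 1166 CPM against 229, 159 and 383 CPM, a log2 difference of 2.11 (SE 0.18). Izumo1r (chromosome 9, 14885814 to 14903951) stood at 380, 367 and 363 CPM against 51.3, 67.6 and 72.8 CPM, a log2 difference of 2.48 (SE 0.18). Each of these genes was higher in every genotype by more than the spread between genotypes. Tnfrsf4 was higher by 1.05 (SE 0.09) and Ebi3 differed by 0.31 (SE 0.23) with an adjusted p of 0.50. Ctla4 (chromosome 1, 60909025 to 60915832) was already abundant in the other CD4 T cells, at 669, 492 and 776 CPM, and reached 1588, 1724 and 1804 CPM in the Klrg1-negative Tregs. The exception among the identity genes was Nrp1, a semaphorin receptor of thymus-derived Tregs, which gave 7, 0 and 7 UMIs in the Klrg1-negative Tregs and 25, 40 and 34 UMIs in the Foxp3-negative CD4 T cells (log2 difference -1.95, SE 0.46, adjusted p = 0.019).

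Of 12 tested genes of the TGF-beta pathway 3 were higher (Lrrc32, Itgb8 and Itgav) and 2 lower (Tgfbr2 and Furin) in the Klrg1-negative Tregs, with a median of 0.11, and 7 did not pass. Lrrc32 encodes GARP, which holds latent TGF-beta on the Treg surface, and integrins αv and β8, encoded by Itgav and Itgb8, release it. Lrrc32 (chromosome 7, 98489305 to 98501831) gave 87, 37 and 70 UMIs in Klrg1-negative Tregs and 13, 4 and 15 UMIs in Foxp3-negative CD4 T cells, a log2 difference of 3.41 (SE 0.31, adjusted p = 4.18e-05). Itgb8 was higher by 2.93 (SE 0.31) and Itgav by 1.32 (SE 0.18). Tgfbr2, a receptor chain for TGF-beta, had a log2 difference of -0.82 (SE 0.21) and Furin, a protease that processes its precursor, of -1.08 (SE 0.21).

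Among 16 suppressive mediators, 14 were tested, 5 were higher and 1 was lower. Il10 (chromosome 1, 131019845 to 131024970) gave 6, 58 and 34 UMIs in the Klrg1-negative Tregs and 2, 6 and 13 UMIs in the Foxp3-negative CD4 T cells, with a log2 difference of 3.33 (SE 0.50, adjusted p = 0.00116). It was higher within each genotype, although the 19.0 CPM of WT Klrg1-negative Tregs lay below the 27.0 CPM of RARα-TG Foxp3-negative CD4 T cells, and 35 of the 58 RARα-KO UMIs came from 1 cell. Gzmb, the cytotoxic protease granzyme B, was abundant in Klrg1-negative Tregs at 2722, 4099 and 3746 CPM against 985, 1045 and 1630 CPM (adjusted p = 2.25e-05). Tigit, an inhibitory receptor, was higher by 1.07, Cd274, the ligand PD-L1, by 1.31, and Areg, the tissue repair factor amphiregulin, by 1.01. Pdcd1, the inhibitory receptor PD-1, was the member that was lower, at 298, 206 and 180 CPM against 519, 521 and 426 CPM (log2 difference -1.16, SE 0.16).

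Genes of tissue and effector Tregs were higher in part. Of 16 tested, 7 were higher (Batf, Icos, Il1rl1, Itgae, Maf, Nfil3 and Tnfrsf9) and 2 were lower (Bhlhe40 and Cxcr6), with a median log2 difference of 0.51. Itgae encodes CD103, the αE integrin that binds E-cadherin on epithelium, and gave 288, 111 and 406 CPM against 23.5, 7.51 and 81.1 CPM (log2 difference 2.96, SE 0.28). Il1rl1, the IL-33 receptor ST2 of tissue Tregs, gave 26, 14 and 27 UMIs against 9, 24 and 2 UMIs (82.4, 53.5 and 82.4 CPM against 19.2, 25.7 and 4.16 CPM, adjusted p = 0.0117). Cxcr6, a chemokine receptor of tissue-resident T cells, was at 69.7, 168 and 67.2 CPM against 479, 804 and 472 CPM (log2 difference -2.62, SE 0.18). Ccr8, often used to mark tumor Tregs, was at 507, 279 and 287 CPM in Klrg1-negative Tregs and at 263, 202 and 412 CPM in Foxp3-negative CD4 T cells. Its order was turned in RARα-TG, and its log2 difference of 0.26 (SE 0.24) had an adjusted p of 0.59. Costimulatory receptors were higher in 6 of 11 tested genes, among them Cd27 by 1.86, Tnfrsf1b, the TNF receptor 2, by 1.26 and Tnfrsf18, the receptor GITR, by 0.86, and lower in 1, Cd82.

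Resting and lymph node homing genes divided. Of 11 resting T cell genes tested 4 were higher, among them Foxo1, Il7r and Klf2, and 3 lower (Bach2, Ms4a4b and Tcf7), with a median of -0.02. Tcf7, the factor TCF-1 of naive and memory T cells, gave 0, 0 and 3 UMIs against 43, 71 and 53 UMIs (log2 difference -4.77, SE 0.53, adjusted p = 0.000165). Tcf7 was thus nearly unread in these cells. Ccr7 was at 640, 195 and 321 CPM against 639, 217 and 927 CPM and did not pass the test (log2 difference -0.62, adjusted p = 0.17). Among 17 homing receptors tested 6 were higher, with Ccr2 at 1.76 and Itgb7 at 1.16, and 2 were lower, Cxcr6 and the β1 integrin Itgb1 (log2 difference -1.80, SE 0.17).

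No helper T cell gene was higher and 6 of 8 tested were lower, with a median log2 difference of -3.53. Csf2, which encodes the cytokine GM-CSF, gave no UMI in any of 215 Klrg1-negative Tregs, which allows a share of up to 1.40% of cells with a UMI (3 cells of 215) but does not limit how many cells express it, and 170, 73 and 41 UMIs in the Foxp3-negative CD4 T cells, which is at least 45.5-fold lower over the 3 genotypes, with 3 UMIs over the group taken for the 0. Ifng, the cytokine interferon gamma, gave 2, 1 and 1 UMIs against 243, 168 and 143 UMIs (log2 difference -6.21, SE 0.31, adjusted p = 1.32e-06). Tnfsf8, the ligand CD30L, gave 0, 0 and 2 UMIs against 98, 134 and 68, and Cd40lg gave 0, 0 and 5 UMIs against 31, 56 and 20. Bcl2, the survival factor (chromosome 1, 106538176 to 106714290), gave no UMI in the Klrg1-negative Tregs and 19, 48 and 13 in the Foxp3-negative CD4 T cells, at least 12.8-fold lower. Of 13 IL-2 signalling genes, Bcl2 was the only one lower and Pim1, a kinase gene that IL-2 induces, the only one higher (0.91, SE 0.15).

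The genes with the largest differences were these. Beside Flicr, Lrrc32, Il10, Itgae, Itgb8, Ikzf2 and Izumo1r, the highest held Cnih2 (3.08), Csrp2 (2.68), Frmd5 (2.51) and Ncmap (2.48), all with low levels of 9 to 33 UMIs per genotype. Flicr (log2 difference 3.49) is a noncoding RNA of the Foxp3 locus, so its reads may be those of Foxp3 and its value is uncertain. The lowest were Csf2, Apol7e, Bcl2, Klrd1, Ifitm1, Ifng, Serpine2 and Klrk1. Apol7e gave no UMI against 14, 66 and 13, at least 14.9-fold lower. Klrd1 and Klrk1 encode the NK receptors CD94 and NKG2D, and had 2 UMIs and 1 UMI in all Klrg1-negative Tregs, with pooled log2 ratios of -7.37 (95% interval -10.42 to -5.52) and -6.51 (-11.82 to -4.01). Ifitm1, a membrane protein gene induced by interferon, had a log2 difference of -6.37 (SE 0.38) and Serpine2, a protease inhibitor gene, of -6.19 (SE 0.42). The list of 7 CD8 effector markers includes Cd8a and Cd8b1, which the gate set to 0 in the Klrg1-negative Tregs but not in the reference. Part of their difference was therefore fixed in advance. The 7 genes summed to 2276, 1452 and 97.7 CPM in the Foxp3-negative CD4 T cells, with none at 0. In the Klrg1-negative Tregs they summed to 15.8, 87.9 and 9.16 CPM, with 4, 4 and 5 at 0, Cd8a and Cd8b1 among them. 26 of the 373 assigned Foxp3-negative CD4 T cells had Cd8 UMIs, and without them 269 genes were higher and 214 lower. The part of such cells in the lower genes was not tested beyond that count.

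**Figure D2:**
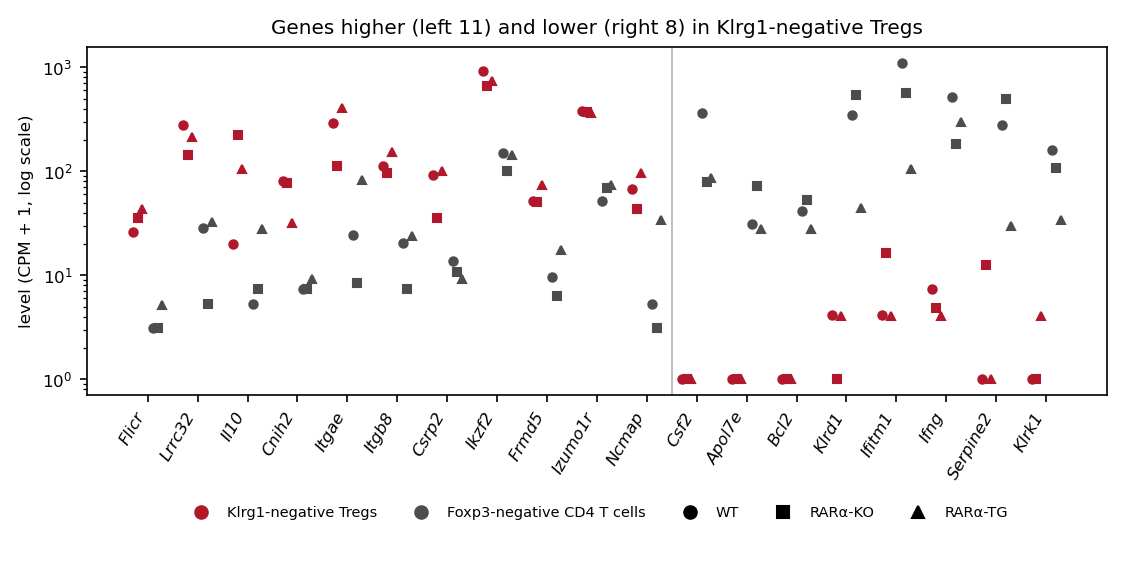
Level of 11 of the 12 genes with the highest log2 difference and of the 8 with the lowest (vertical axis, CPM + 1 on a log scale) in Klrg1-negative Tregs and Foxp3-negative CD4 T cells, 1 symbol per genotype. The groups do not overlap for these genes except Il10, with Ikzf2 at 658 to 922 CPM against 100 to 147 CPM and Csf2 at 0 against 78.3 to 363 CPM.

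Interferon-stimulated genes were higher in 7 of 11 tested and lower in none, with a median of 0.77. Isg15 stood at 548, 424 and 400 CPM against 152, 234 and 264 CPM (log2 difference 1.04, SE 0.22). Igtp, an interferon-induced GTPase gene, was higher by 1.36. Of 13 antigen receptor response genes 3 were higher (Cd69, Jun and Nfkbia) and Dusp2 was lower. Of 4 retinoid genes with enough UMIs, Rarg, the gene of the receptor RARγ, was higher, at 50.7, 61.2 and 116 CPM against 17.1, 25.7 and 54.1 CPM (1.20, SE 0.27, adjusted p = 0.0144). None of 10 cell cycle genes and none of 10 heat shock genes passed the test. Of the strain-marking transcripts only Rpl29 could be tested, with a log2 difference of -0.47 (SE 0.10).

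Far fewer genes were called between Klrg1-negative and Klrg1-positive Tregs. Of 5011 genes tested, 4 were higher (0.0798%) and 6 lower (0.12%) in the Klrg1-negative Tregs, and none of the 11 tested Treg identity genes passed in either direction. The 4 higher genes were Ccr7, Isg15, Socs3, a feedback inhibitor of cytokine signalling, and Trat1, an adaptor of the TCR complex. Ccr7 (chromosome 11, 99144199 to 99155077) stood at 640, 195 and 321 CPM in Klrg1-negative Tregs against 373, 134 and 84 CPM in Klrg1-positive Tregs. It was higher within each genotype, although the ranges over genotypes overlap, with a log2 difference of 1.08 (SE 0.21, adjusted p = 0.0118). Isg15 stood at 548, 424 and 400 CPM against 282, 283 and 158 CPM, without overlap (0.96, SE 0.17, adjusted p = 0.00477). Socs3 was higher by 1.10 (SE 0.23) and Trat1 by 1.39 (SE 0.31, adjusted p = 0.048).

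The 6 lower genes were Cxcl2, Anxa1, Ifitm3, Plac8, Ifitm2 and S100a6, several of which are abundant in myeloid cells. Cxcl2, a neutrophil-attracting chemokine, gave 7, 5 and 9 UMIs against 22, 165 and 120 UMIs, and 165 of these came from 2 RARα-KO cells. Anxa1, the gene of annexin A1, gave 3, 4 and 8 UMIs against 75, 13 and 143 UMIs, and the 75 WT UMIs came from 1 cell. S100a6, a calcium-binding protein gene, was spread over nearly all cells, at 1702, 1835 and 3044 CPM against 2610, 2604 and 4257 CPM (log2 difference -0.55, SE 0.09, adjusted p = 0.00298). Myeloid markers summed to 29.4, 558 and 993 CPM in the Klrg1-positive Tregs, with 5, 2 and 0 of 10 genes at 0, beside 22.2, 38.2 and 33.6 CPM in the Klrg1-negative Tregs, and their part in the lower genes was not tested. Without cells of doubtful depth or hemoglobin content the counts were 4 higher and 3 lower, with Ifitm3, Plac8, Ifitm2 and S100a6 no longer called.

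These 10 calls were not stable. DESeq2 and the edgeR fit without the genotype block each called no gene, with 59 and 221 genes at an unadjusted p under 0.05, and no gene was called among cells with 2 or more Foxp3 UMIs (260 at an unadjusted p under 0.05). Leaving out RARα-KO raised the counts to 97 higher and 103 lower, while leaving out WT or RARα-TG left 1 higher and 8 or 7 lower. Over the gene lists, no suppressive mediator (15 tested), tissue and effector gene (16), costimulatory receptor (10), TGF-beta gene (12), antigen receptor response gene (13), cell cycle gene (13), helper gene (2), retinoid gene (4) or heat shock gene (10) passed. A call that fails here does not show that the populations were equal.

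The genotypes were compared by the ratio of CPM in the Klrg1-negative Tregs. With 1 sample each there is no test, and a gene was counted as apart when its level differed 2-fold or more, provided that at least 1 of both genotypes had a mean of 0.1 UMIs in each cell. RARα-KO and RARα-TG are compared with the same WT cells, so what both ratios share may lie in WT. In RARα-KO 675 of 6283 genes were 2-fold or more higher (10.7%) and 504 lower (8.02%), and for 228 and 166 of them the interval excluded 0. In RARα-TG 424 of 5647 genes were 2-fold or more higher (7.51%) and 407 lower (7.21%), with 180 and 163 whose interval excluded 0. Without the cells of doubtful depth or hemoglobin content the counts were 547 and 504 in RARα-KO and 420 and 409 in RARα-TG.

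Many of the most extreme ratios rested on single cells. In RARα-KO the highest by the bound nearest to 0 were Ccl4, Ccl3, Gm42031, Pclaf, Gm43305, Hist1h1b, Itga4 and Ube2c. Ccl4, an inflammatory chemokine, gave 3 UMIs in WT and 415 in RARα-KO, of which 1 cell held 303. Ccl3 gave 0 and 74, of which 1 cell held 64. The cell cycle genes Hist1h1b (31 of 37 UMIs), Ube2c (34 of 34) and Pclaf (20 of 34) were likewise held mostly by 1 RARα-KO cell. On the low side of both comparisons stood the globin genes Hbb-bs, Hbb-bt, Hba-a1 and Hba-a2, whose WT UMIs all came from 1 cell, with Hbb-bs at 4617 UMIs. In RARα-TG, 1 cell held 12 of 18 Il17a UMIs, 20 of 26 Ly6c2 UMIs and 20 of 28 Mki67 UMIs. Ltf and Ly6c1 were spread over 8 and 10 RARα-TG cells, with ratios of 4.19 (1.54 to 9.57) and 2.95 (1.45 to 4.91). Cell cycle genes summed to 691, 2256 and 1151 CPM in WT, RARα-KO and RARα-TG Klrg1-negative Tregs and to 1756, 1982 and 1644 CPM in Klrg1-positive Tregs, so WT, which both ratios share, was the low one. In RARα-KO 14 of 15 such genes with enough UMIs were 2-fold or more higher (10.7% of all genes) with a median of 2.49, and 4 of 7 with a median of 1.37 once the RARα-KO cell above 20000 UMIs and the WT cell rich in hemoglobin were both left out. In RARα-TG it was 4 of 8 (7.51% of all genes), with and without such cells.

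**Figure D3:**
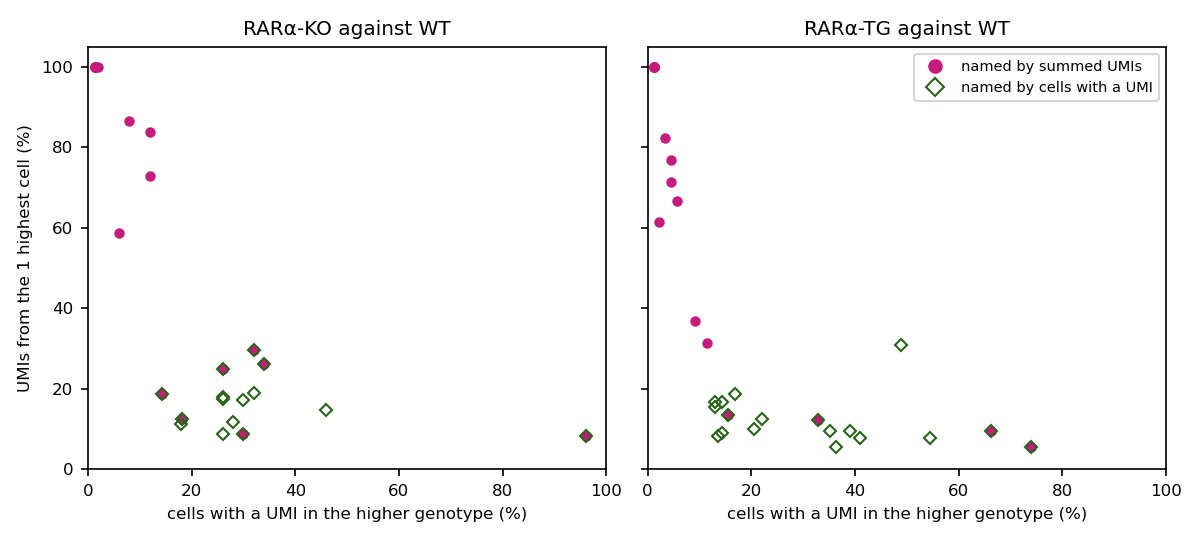
Share of UMIs held by the 1 cell with the most UMIs of a gene (vertical axis, %) against the share of cells with a UMI (horizontal axis, %), both in the higher genotype, for genes named by summed UMIs (filled circles) and by the shares of cells (open diamonds). Circles at the top left rest on few cells, such as Ccl4 with 303 of 415 RARα-KO UMIs in 1 of 6 cells, while the highest diamond of the RARα-TG panel, Hspa1b, had 81 of 262 UMIs in 1 of 43 cells.

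Genes whose shares of cells also differed, with 95% intervals that did not overlap, were therefore set apart, by a rule chosen after these values were seen. In RARα-KO, Itga4, the α4 integrin that brings T cells into inflamed tissue (chromosome 2, 79255426 to 79333114), was higher over cells. It was read in 2 of 77 WT cells with 2 UMIs and in 16 of 50 RARα-KO cells with 37 UMIs. The log2 ratio was 4.48, with an interval of 2.53 to 7.58. The same ratio was 3.41 (2.19 to 4.93) in Klrg1-positive Tregs and 1.56 (0.98 to 2.20) in Foxp3-negative CD4 T cells, so RARα-KO was above WT in all 3 populations. Lilr4b, an inhibitory immunoglobulin-like receptor gene, was read in 4 of 77 and 13 of 50 cells with a ratio of 1.76 (0.67 to 2.96). Egr1, an early transcription factor induced by TCR signals, was read in 5 of 77 and 16 of 50 cells with a ratio of 2.48 (1.35 to 3.79), but at 0.07 (-0.73 to 0.86) in Klrg1-positive Tregs. Of the antigen receptor response genes 5 of 14 were 2-fold or more higher in RARα-KO (Egr1, Fos, Fosb, Jun and Myc), beside 10.7% of all genes, and none lower, although the intervals of Fos (-0.15 to 2.62) and Fosb (-1.02 to 4.99) held 0 and Myc was read in 5 cells of each genotype. Some stress genes, singled out after their values were seen, were also read in larger shares of RARα-KO cells without overlap of the intervals, namely Hspa1a (4 of 77 WT and 13 of 50 RARα-KO cells), Hspa1b (10 and 19 cells), Dnajb1 (36 and 37), Ahsa1 (26 and 31) and Chordc1 (24 and 29). Their log2 ratios of summed UMIs ran from -1.53 for Hspa1a, with 104 of 108 WT UMIs in 1 cell, to 0.91 for Ahsa1, and the part of cell handling in the Egr1 values was not tested. The other genes named by this rule as higher were Gm42031, Gm43305, Rars, Rnft1, Adarb1, Camk2n1 and Nhp2, with ratios of 1.31 to 6.46, of which those of Gm43305 and Adarb1 are lower bounds.

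Nt5e, the ectoenzyme CD73 with which Tregs make adenosine (chromosome 9, 88327609 to 88372089), was the suppressive mediator that was lower in RARα-KO. It gave 34 UMIs in 23 of 77 WT cells and none in 50 RARα-KO cells, which allows a share of up to 6% of cells with a UMI (3 cells of 50), and was at least 9.39-fold lower. RARα-TG was close to WT, with 27 UMIs in 20 of 88 cells. The Nt5e ratio of RARα-KO was -1.59 (-3.17 to -0.26) in Klrg1-positive Tregs and -2.15 (-3.47 to -0.95) in Foxp3-negative CD4 T cells. Il10 was the suppressive mediator that was 2-fold or more higher in RARα-KO, read in 5 of 77 WT and 11 of 50 RARα-KO cells. With 1 of 14 higher and 1 of 14 lower, the mediators were near the shares of all genes, 10.7% higher and 8.02% lower. Ccr7 was lower, at 195 against 640 CPM (-1.71, -2.19 to -1.27), as were Ccr4, the receptor that leads Tregs to tissue (-2.19, -3.73 to -0.92), and Itgae (-1.38, -2.04 to -0.76). Of 11 Treg identity genes none reached 2-fold, beside the same shares of all genes, with a median of -0.21. Ikzf2 was at 658 against 922 CPM (-0.49, -0.77 to -0.21), Lrrc32 at 141 against 276 CPM (-0.96, -1.56 to -0.39) and Ctla4 at 1724 against 1588 CPM (0.12, -0.07 to 0.31), with 112 of the 451 RARα-KO UMIs of Ctla4 in 1 cell.

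Transcripts that can mark a strain background moved with RARα-KO in every population. Rpl29, a ribosomal protein gene (chromosome 9, 106428889 to 106431568), was at 1930, 291 and 1704 CPM in the same order of genotypes, and its log2 ratio of RARα-KO to WT was -2.73 (-3.10 to -2.39). Gm42031 gave 1, 73 and Gm43305 gave 0, 28 UMIs in WT and RARα-KO, and both were higher in RARα-KO in the Klrg1-positive Tregs and the Foxp3-negative CD4 T cells as well. Of 5 such transcripts with enough UMIs, 4 were 2-fold or more higher and 1 lower in RARα-KO, and the 7 listed summed to 1949, 730 and 1765 CPM in WT, RARα-KO and RARα-TG. Strain background and the deletion cannot be told apart here, for Itga4 and Nt5e as for any other gene. Med13, Gm20186 and Gm47283 were also lower over cells in RARα-KO. Reads of Rpl29 may also be shared with its pseudogenes, so its value is uncertain.

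In RARα-TG Ramp1, a coreceptor for the neuropeptide CGRP (chromosome 1, 91179822 to 91225196), was higher over cells. It was read in 8 of 77 WT cells with 11 UMIs and in 29 of 88 RARα-TG cells with 74 UMIs, a log2 ratio of 2.70 (1.77 to 3.76). The ratio was 4.21 (3.26 to 5.35) in Klrg1-positive Tregs and 3.35 (2.42 to 4.45) in Foxp3-negative CD4 T cells. Cd69, an activation and tissue retention marker, stood at 136 CPM in WT and 400 CPM in RARα-TG (1.55, 1.05 to 2.09) and was read in 22 of 77 and 48 of 88 cells. Cxcr4, a chemokine receptor, was read in 12 of 77 and 36 of 88 cells (1.40, 0.62 to 2.24). Hspa1b, an inducible heat shock gene, was read in 10 of 77 and 43 of 88 cells, with 78 of its 94 WT UMIs in 1 cell (1.43, 1.08 to 1.78), and its ratio turned to -0.28 among cells with 2 or more Foxp3 UMIs. The 11 heat shock genes summed to 9954, 10652 and 14179 CPM in WT, RARα-KO and RARα-TG, and the part of cell handling in the RARα-TG values was not tested. Wdr70, Rnft1, Fbxo33 and Map4k4 were also higher over cells.

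Gimap7 and Gimap4, neighbours on chromosome 6, led the genes lower over cells in RARα-TG. They encode GTPases that support lymphocyte survival, and lie at 48718621 to 48724636 and 48684578 to 48692062. Gimap7 was read in 51 of 77 WT cells and in 11 of 88 RARα-TG cells, at 434 and 55.0 CPM, with a ratio of -2.98 (-3.78 to -2.27). Gimap4 was read in 57 of 77 and 13 of 88 cells, at 469 and 73.3 CPM, with a ratio of -2.68 (-3.37 to -2.05). Both were also lower in RARα-TG in the other populations, with Gimap7 at -2.43 (-2.80 to -2.08) in Klrg1-positive Tregs and -1.53 (-2.22 to -0.88) in Foxp3-negative CD4 T cells. Kars, a lysyl-tRNA synthetase gene, gave 15 UMIs in WT and none in RARα-TG, at least 5.19-fold lower, but its ratio in Klrg1-positive Tregs was 0.22 (-0.64 to 1.12). Adk, Itih5, Trim34a, Atp13a1, Eaf1, 2310039H08Rik and Ly75 were the other genes named as lower over cells.

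Among the lists, RARα-TG left the Treg identity genes near WT, with none of 11 at 2-fold and a median of 0.07. The shares to set beside this and the list counts below are 7.51% of all genes 2-fold or more higher and 7.21% lower. Il10 was the only suppressive mediator of 14 at 2-fold, a share near that of all genes. It had 6 UMIs in 5 WT cells and 34 in 11 RARα-TG cells, 18 of them in 1 cell (2.45, 1.18 to 3.99). It was 2-fold or more higher in RARα-KO as well, so WT was the low one. Tnfrsf9, the costimulatory receptor 4-1BB, was at 1594, 2963 and 3236 CPM in WT, RARα-KO and RARα-TG, so that both were above WT (0.89, 0.73 to 1.06, and 1.02, 0.87 to 1.18). Ccr7, a receptor for entry to lymph nodes, was lower, at 321 against 640 CPM (95% interval -1.35 to -0.65, and -1.11 to -0.31 without the cell of most UMIs in each genotype, which in WT held 62 of 202). Of 16 helper genes only 5 in RARα-TG and 3 in RARα-KO had enough UMIs to be compared. A gene nearly unread in WT could enter only where it was high in the other genotype, so no share is drawn from them. Il17a, the cytokine IL-17A, gave 0 UMIs in WT and 18 in RARα-TG, 12 of them in 1 cell. Tnf gave 4 UMIs in WT and 19 in RARα-KO, 9 of them in 1 cell. Interferon-stimulated genes had a median of -0.60 over 13 genes, with 1 of them past 2-fold. Rarg was at 116 against 50.7 CPM (1.19, 0.32 to 2.14). Among 12 IL-2 signalling genes Socs1 (-1.24, -1.73 to -0.77) and Stat5a (-1.05, -1.96 to -0.20) were 2-fold or more lower, and no TGF-beta gene of 12 was.

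**Figure D4:**
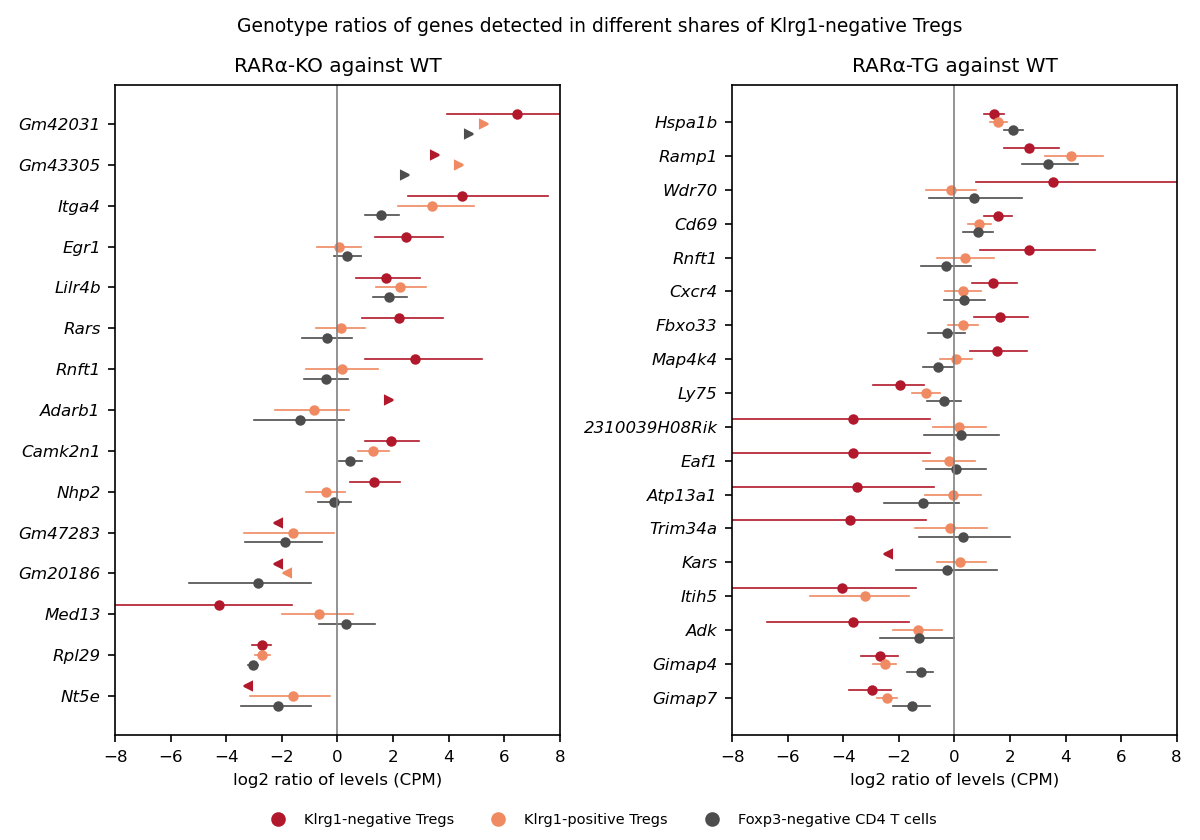
Log2 ratio of CPM to WT (horizontal axis) with 95% counting intervals for genes that differed over many Klrg1-negative Tregs, beside the same ratio in Klrg1-positive Tregs and Foxp3-negative CD4 T cells, where triangles are bounds set by a count of 0 and intervals past 8 on either side end at the frame. Itga4 lies above 0 in all 3 populations of RARα-KO, and Ramp1 lies above and Gimap7 and Gimap4 below 0 in all 3 of RARα-TG.

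The share of Tregs among TCR-bearing cells differed between genotypes, with and without Klrg1. Of 1290 TCR-bearing WT cells 77 were Klrg1-negative Tregs, or 5.97% (exact 95% interval 4.74% to 7.40%). For RARα-KO it was 50 of 1529, or 3.27% (2.44% to 4.29%), and for RARα-TG 88 of 676, or 13.0% (10.6% to 15.8%). The intervals did not overlap. Klrg1-positive Tregs had the same order, at 109 WT cells or 8.45% (6.99% to 10.1%), 77 RARα-KO cells or 5.04% (3.99% to 6.25%) and 191 RARα-TG cells or 28.3% (24.9% to 31.8%). Equal numbers of T cells were sorted per genotype, so the denominators also differ in how many sorted cells were read and assigned. The denominators also hold CD8 T cells, which the study reports as fewer in RARα-TG and more in RARα-KO tumors. The part of CD8 T cells in these shares was not tested. Foxp3-negative CD4 T cells numbered 93, 169 and 111 in genotype order, and no share of CD4 T cells was computed. By flow cytometry the study found Treg frequencies among CD4 T cells largely similar, with a small rise in RARα-KO MC38 tumors. That method did not bear out a possible modest Foxp3 gain with higher RARα. Where the hashtag had to be 10 times the next one rather than 3 times, only 408 WT cells remained and the WT share became 10.8%, whose interval of 7.95% to 14.2% overlaps that of RARα-TG at 14.0% (10.6% to 18.0%), while RARα-KO stayed at 3.09%. Among all Tregs the Klrg1-negative cells were 41.4% of 186 WT cells (34.2% to 48.8%), 39.4% of 127 RARα-KO cells (30.8% to 48.4%) and 31.5% of 279 RARα-TG cells (26.1% to 37.3%), and these intervals overlap. With every cell thinned to 1000 UMIs the shares were 67.0%, 62.7% and 56.8%, which shows how far a Klrg1 count of 0 follows depth.

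Most Klrg1-negative Tregs of WT and RARα-TG were the only cell read of their clonotype, while the RARα-KO share was less certain. A clonotype of 1 cell among all TCR-bearing cells held 54 of 77 WT cells, or 70.1% (58.6% to 80.0%). It held 26 of 50 RARα-KO cells, or 52.0% (37.4% to 66.3%), and 65 of 88 RARα-TG cells, or 73.9% (63.4% to 82.7%). The shares among Klrg1-positive Tregs were 48.6%, 44.2% and 50.8% in the same order, and only the RARα-KO intervals of both populations overlap. In the Foxp3-negative CD4 T cells they were 53.8%, 36.1% and 70.3%. A beta chain was read in 67 of 77, 45 of 50 and 79 of 88 Klrg1-negative Tregs. In the Foxp3-negative CD4 T cells it was read in 89 of 93, 168 of 169 and 103 of 111. The part of unread chains and of the number of cells read in these shares was not tested. Counted over the Klrg1-negative Tregs alone, the cells formed 71, 41 and 85 clonotypes.

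Shared clonotypes tied the Klrg1-negative Tregs mostly to Klrg1-positive Tregs. A clonotype also found in a Klrg1-positive Treg of the same genotype was carried by 18 of 77 WT cells, or 23.4% (14.5% to 34.4%). The same held for 17 of 50 RARα-KO cells, or 34.0% (21.2% to 48.8%), and 12 of 88 RARα-TG cells, or 13.6% (7.25% to 22.6%), and the intervals of neighbours in this order overlap. With Foxp3-negative CD4 T cells, 0 of 77 WT cells shared one, which allows a share of up to 3.90% by 3 cells of 77 and up to 4.68% by the exact interval, beside 5 of 50 RARα-KO cells (10.0%, 3.33% to 21.8%) and 3 of 88 RARα-TG cells (3.41%, 0.709% to 9.64%). These shares depend on how many cells of each population were read. Across tumors, of 197 clonotypes none had Klrg1-negative Tregs of more than 1 genotype, and of 171 distinct beta CDR3 sequences none was found in more than 1. With all TCR-bearing cells counted, 4 of the 197 clonotypes also had a cell of another genotype. The median beta CDR3 was 42 bases long in each genotype. The most used V genes were TRBV12-2+TRBV13-2 in 11 of 67 WT cells and in 8 of 45 RARα-KO cells with TRBV26 at the same number, and TRBV19 and TRBV3 in 11 of 79 RARα-TG cells each. At least 2 productive beta chains, which can mark 2 cells in 1 droplet, were seen in 6 of the 226 cells.

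**Figure D5:**
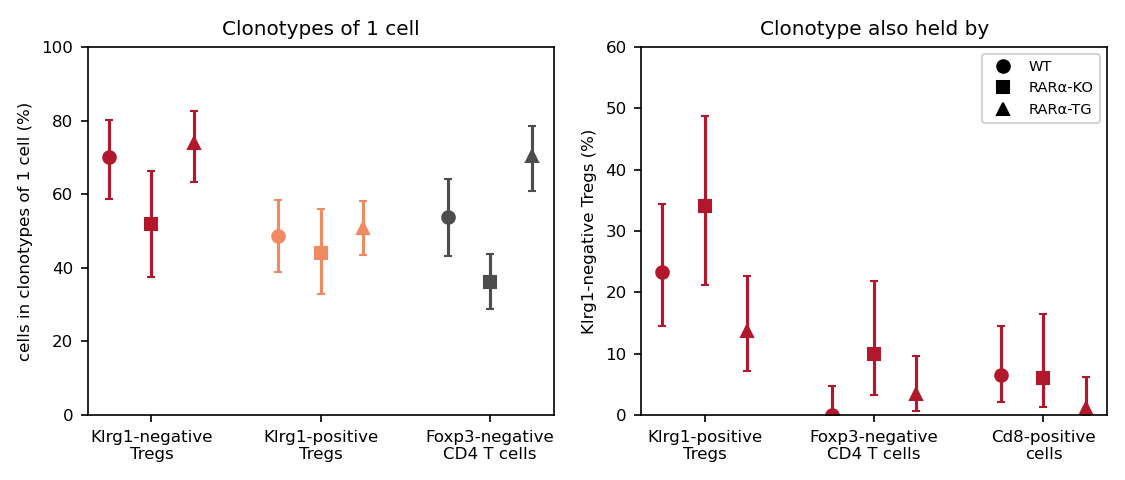
Share of cells in clonotypes of 1 cell and share of Klrg1-negative Tregs whose clonotype is also found in other populations (vertical axes, %), by genotype, with exact 95% binomial intervals. Klrg1-negative Tregs were in clonotypes of 1 cell in 70.1%, 52.0% and 73.9% of cells, and shared clonotypes with Klrg1-positive Tregs in 23.4%, 34.0% and 13.6%.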

How the data were processed

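Single-cell RNA, TCR and hashtag libraries of the same cells were analysed as 1 pooled library with 1 sample per genotype. The authors deposited UMI counts per gene, hashtag and barcode, not normalized, with a table of TCR contigs. Reads were aligned to mm10 (GRCm38) with Cell Ranger, version 6.1.0 per the labels, while the matrix header names another major version. The matrix held 32285 genes and 730308 barcodes, and all 3702 barcodes with a clonotype had 500 or more UMIs.

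A genotype was assigned where the top hashtag had 10 or more UMIs and 3 or more times the next, which also removed droplets with mixed hashtags. No doublet caller was run. UMIs were summed per genotype and population and tested with edgeR 4.0.16 in R 4.3.3 (TMM, filterByExpr, quasi-likelihood, genotype as a block, 3 pairs, Benjamini-Hochberg). The genotype block pairs populations from the same tumor. The gating genes and receptor segments were left out of the tests, and the steps were tested on simulated data. The SE of a log2 difference was taken from the test's F value. Ratios between genotypes have exact binomial 95% intervals, shares have Clopper-Pearson ones, and a count of 0 was set to 3 UMIs. The script used Python 3.11.15 with numpy 2.4.6, scipy 1.17.1 and pandas 2.3.3. Positions came from RefSeq for GRCm38.p6 and matched 296 of 300 genes.

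Members, lists and tests were chosen with earlier results of these data known. Named genes were the 12 highest and 8 lowest by log2 difference against Foxp3-negative CD4 T cells, those called against Klrg1-positive Tregs, the 8 highest and 8 lowest between genotypes by the bound nearest to 0, and up to 4 genes of each list with the most UMIs. Some genes these rules chose are not reported here. Genes named by their log2 difference or call in the tested comparisons had to have the same direction in all 3 tumors. The counts of called genes used only the adjusted p and the sign of the log2 difference. Other list genes were named for their calls, after their values were seen. The rule over shares of cells, which names at most 10 genes in each direction, and the alternatives without single or doubtful cells were chosen after seeing the data. The other alternatives were DESeq2 1.42.0, RLE size factors, no filter, no block, each genotype left out, stricter gates or hashtags, thinning to 1000 UMIs, 1 cell per clonotype, and another CPM denominator.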

Additional observations from a re-analysis of the deposited data

Results flagged for a closer look

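For some genes the ratio of RARα-KO or RARα-TG to WT in Klrg1-negative Tregs had the opposite sign in another population, with intervals on opposite sides of 0. There is 1 sample for each genotype and the difference between populations was not tested. The Ccl4 log2 ratio of RARα-KO to WT was 7.38 in Klrg1-negative Tregs, -0.631 in Klrg1-positive Tregs and -2.63 in Foxp3-negative CD4 T cells, and 1 cell held 303 of 415, 243 of 258 and 268 of 374 UMIs in the higher genotype of each. The Ccl3 ratio was -3.82 in Foxp3-negative CD4 T cells, where the Klrg1-negative Tregs had 0 WT and 74 RARα-KO UMIs. The Hist1h1b ratio was 5.48 in Klrg1-negative Tregs, -0.568 in Klrg1-positive Tregs and -1.19 in Foxp3-negative CD4 T cells. The Ube2c ratio was 4.36 in Klrg1-negative Tregs, all from 1 RARα-KO cell, and -2.82 in Foxp3-negative CD4 T cells. The Map4k4 ratio of RARα-TG to WT was 1.53 in Klrg1-negative Tregs, read in 10 WT and 32 RARα-TG cells, and -0.577 in Foxp3-negative CD4 T cells.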

How the results depend on the processing

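Of the shares and counts of genes recomputed under the alternatives, 98 stayed within the exact 95% interval (shares) or within 1.5 times (counts) of the reported value and 45 moved. With 2 or more Foxp3 UMIs the pool was 3.49%, 2.16% and 8.14% of TCR-bearing cells in genotype order, and the stricter hashtag gave 10.8% for WT. Thinning gave 67.0%, 62.7% and 56.8% Klrg1-negative cells among Tregs. Counted over members alone, 87.0%, 70% and 93.2% were in clonotypes of 1 cell. Against Foxp3-negative CD4 T cells, DESeq2 gave 123 higher and 92 lower genes, the fit without the genotype block 182 and 146, thinning 29 and 46 (of 1172 tested), no filter 444 lower, and leaving out 1 genotype 178 to 270 and 135 to 226, lowest without WT. Against Klrg1-positive Tregs, RLE gave 9 and 10, no filter 21 and 66, DESeq2, no genotype block and 2 or more Foxp3 UMIs 0 and 0, leaving out 1 genotype 1 to 97 and 7 to 103, thinning 1 higher, 1 cell per clonotype 2 higher, and leaving out doubtful cells 3 lower. For RARα-KO, thinning gave 300 genes higher and a minimum of 10 UMIs 449. For RARα-TG, higher and lower counts were 912 and 653 for members with Cd4 UMIs, 658 and 619 for the stricter hashtag, 185 and 241 after thinning, and 629 lower for 2 or more Foxp3 UMIs. Fewer cells or genes enter most of these, and the cause was otherwise not tested. In RARα-TG, Hspa1b turned to -0.282 with 2 or more Foxp3 UMIs, and no other gene named here reversed. The same genotype pairs both populations of a tumor, so the block is part of the design. Depth limits low genes most, since 1 UMI in a genotype is 3.05 to 3.82 CPM.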

Other observations

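Gimap7 and Gimap4 belong to a cluster of immune GTPase genes on chromosome 6, and the other members were read in Klrg1-negative Tregs as well. These genes were chosen after their values were seen, and WT is shared by both ratios. All 8 had a negative RARα-TG to WT log2 ratio, from -2.98 for Gimap7 and -2.68 for Gimap4 through -1.17 (-1.79 to -0.58) for Gimap6, -1.05 (-1.99 to -0.17) for Gimap9 and -1.01 (-1.63 to -0.42) for Gimap5 to -0.51 (-0.82 to -0.21) for Gimap3. Gimap8 at -0.30 and Gimap1 at -0.28 had intervals that held 0. In RARα-KO, Gimap7 was at 0.78 (0.46 to 1.11) and Gimap6 at 0.62 (0.17 to 1.08), while Gimap3 was at -0.47. Of 5565 genes compared, 60 had shares of cells that differed between RARα-TG and WT without overlap of their intervals, and 17 of the 60 were higher in RARα-TG. Of the 60, 11 lie on chromosome 6, which holds 279 of the 5565 genes (5.01%). Of the 11, 6 are the Gimap genes that prompted the count and 5 are others. In RARα-KO 53 of 6185 genes had shares that differed from WT in this way, 47 of them higher. These shares are not scaled for depth, and by the median cell depth was highest in RARα-KO and lowest in RARα-TG. The part of depth in these counts was not tested.

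Some genes of interferon signalling and antigen presentation, chosen after their values were seen, had negative log2 ratios of RARα-TG to WT in Klrg1-negative Tregs. Of the 13 genes compared from the list of interferon-stimulated genes, 1 was 2-fold or more lower (Rsad2) and none without the cells of doubtful depth or hemoglobin content. Stat2, a transcription factor of the interferon response, was at -2.26 (-4.01 to -0.83), Rtp4 at -1.55 (-2.69 to -0.52) and Dtx3l at -1.34 (-2.28 to -0.47). Psmb9, a subunit of the immunoproteasome, was at -1.01 (-1.44 to -0.60), and Tap1, a subunit of the peptide transporter, at -0.48 (-0.85 to -0.11). H2-Q4 and H2-Q7, class I genes that share sequence with their relatives and are therefore uncertain, were at -0.72 and -0.51. In RARα-KO, Stat2 was at -1.67 (-3.25 to -0.33), Psmb9 at 0.22 and Tap1 at 0.14. These are values of 1 sample per genotype without a test.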
